A study of Mus musculus with 6 samples.

Results

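The genes described here make, activate, take up or retain docosahexaenoic acid (DHA) and the very-long-chain polyunsaturated fatty acids of the retina. They are the desaturases Fads1 and Fads2, the elongases Elovl2, Elovl4 and Elovl5, the acyl-CoA synthetase Acsl6, the transporter Mfsd2a and the receptor Adipor1. They were chosen by name for these roles, with earlier results of these data known, and all 8 are rows of the deposited table of 24062 genes. RNA was sequenced from retinae of C57BL/6 mice (C57BL/6N in the study's methods) at P21 (21 days of age), 3 of the genotype Rb1/p107 DKO and 3 of the genotype Rb1/p107/Hells TKO. Both genotypes carried Chx10-Cre, a Cre driven in retinal progenitors, together with floxed Rb1 (lox/lox) and a germline p107 knockout (p107-/-, gene symbol Rbl1). The TKO retinae also carried floxed Hells (lox/lox), in which Cre removes an exon of the helicase domain. The comparison is thus of Hells loss on a background in which Rb1 and p107 are targeted in both groups. The Cre is active in only some progenitors, so every retina also held cells that had not recombined. The labels do not say that the 3 replicates came from separate animals, and the p-values then measure the spread between these samples only.

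Mammals build DHA from plant-derived omega-3 precursors by alternating desaturation and elongation in the endoplasmic reticulum, followed by chain shortening in peroxisomes, and they also take up finished DHA from the blood. Photoreceptor outer segments are among the membranes richest in DHA in the body, and photoreceptors lengthen part of it further into very-long-chain polyunsaturated fatty acids that sit in the disc membranes. Loss of the elongase that makes those chains, or of the proteins that import or retain DHA, is known to harm photoreceptors.

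The counts summed to between 10343907 and 14203098 per library. Hells, the targeted gene, counted 60.8, 68.4 and 83.5 in the TKO retinae (replicates 1, 2 and 3, normalized counts) and 678, 523 and 395 in the DKO retinae, with every TKO library below every DKO library (log2 fold change -2.91, adjusted p = 0.00359 by edgeR's quasi-likelihood test). A normalized count is the count divided by the size of its library, scaled with edgeR's TMM method. Rb1 and Rbl1 are altered in both groups and had log2 fold changes of 0.34 and 0.13. All 14 rod markers were detected and were higher in TKO retinae, with a median log2 fold change of 1.78, and their summed counts ranged from 420400 to 846300 in TKO and from 144400 to 271500 in DKO retinae. All 12 markers of dividing cells were lower in the same libraries, with sums of 1046 to 2937 against 6680 to 14450. The Hells count is over the whole gene and not over the deleted exon, and the part of dividing cells in it was not tested. Of 14 lens markers, 7 were higher in TKO libraries (sums of 715.5 to 4548 against 160.6 to 174.2) with the highest sum in TKO replicate 2, so the counts of genes are also given below without that library. In bulk retina, fewer cells of a type and less RNA per cell cannot be told apart.

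Of these transcripts, 3 were more abundant in TKO retinae, namely the photoreceptor elongase Elovl4, the receptor Adipor1 and the synthetase Acsl6, and a pair, Elovl5 and Fads1 of the early steps of DHA synthesis, was less abundant. Elovl4 rose 2.05-fold, Adipor1 2.22-fold and Acsl6 1.47-fold in TKO retinae, and Elovl5 and Fads1 were 1.47-fold and 1.25-fold higher in DKO retinae. In edgeR's quasi-likelihood test with Benjamini-Hochberg adjustment over 16904 genes, all 8 members could be tested, 3 were higher and 2 were lower at an adjusted p of at most 0.05. Of all genes tested, 7.35% were higher and 9.2% lower by this rule. Elovl4 and Adipor1 also met the study's criteria for a differentially expressed gene, which also ask for a change of 1 or more on the log2 scale and a mean normalized count of 10 or more, and 1.97% of all genes were called higher by them. The values of the 2 groups did not overlap in 3 members that were higher (18.0% of all genes) and 3 that were lower in TKO retinae (20.6% of all genes), the latter with Fads2 beside Elovl5 and Fads1. The median log2 fold change over all genes was -0.011. Single retinae decided how many members passed. Leaving out replicate 3 of either genotype kept all 5, leaving out TKO replicate 1 kept 3, and leaving out TKO replicate 2, DKO replicate 1 or DKO replicate 2 kept 1, which was Elovl4.

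**Figure D1:**
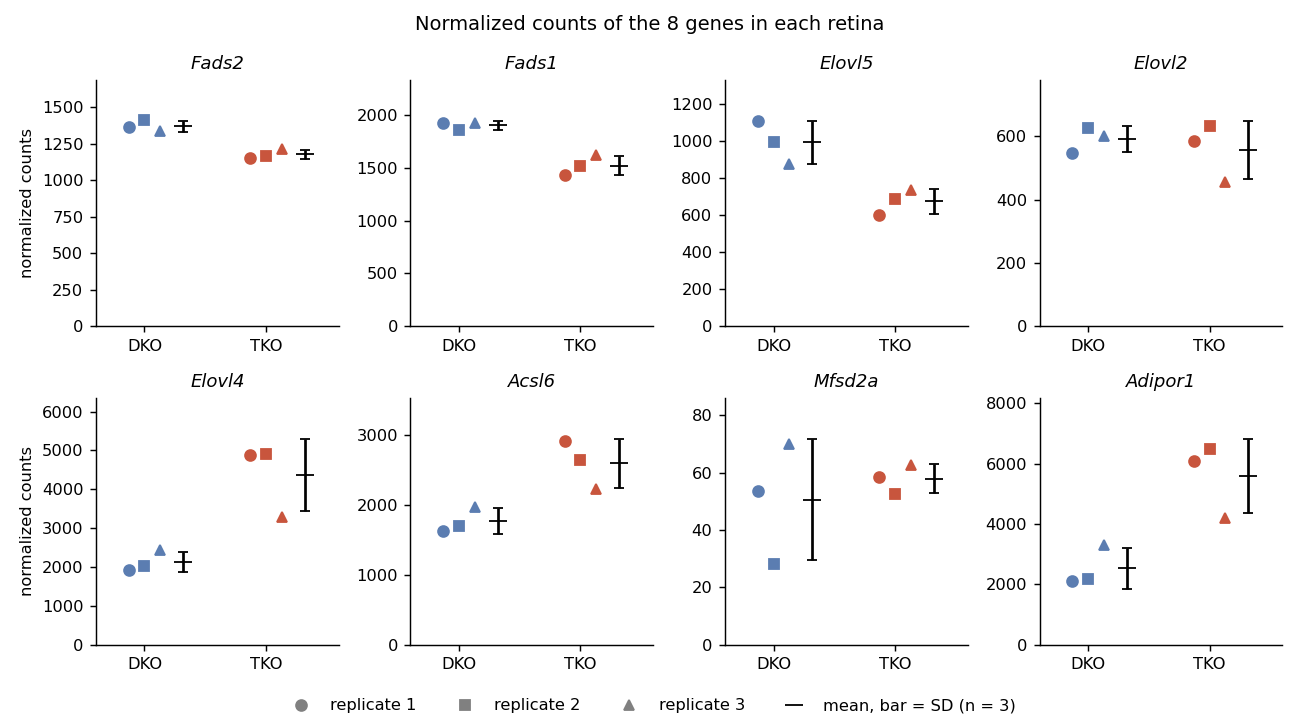
Normalized counts (vertical axes, each from 0) of the 8 genes in each DKO (blue) and TKO (red) retina, with symbols for the replicates and the mean and SD (n = 3) in black. Elovl4, Acsl6 and Adipor1 lie higher in every TKO retina, Fads1, Fads2 and Elovl5 lie lower, and the groups overlap for Elovl2 and Mfsd2a.

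**Figure D2:**
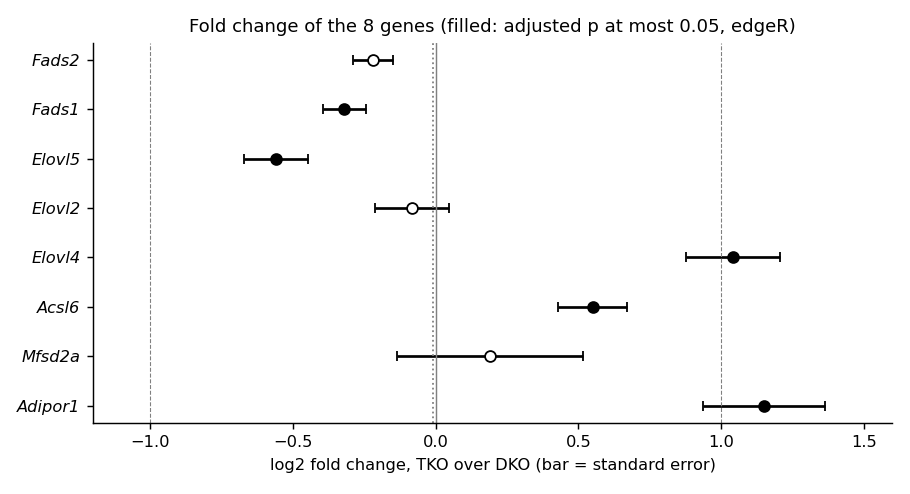
Log2 fold change of each gene, TKO over DKO, with its standard error from edgeR; filled points passed an adjusted p of 0.05, dashed lines mark a change of 1 and the dotted line the median of all genes (-0.011). Elovl4 (1.04) and Adipor1 (1.15) lie past 1, and Elovl5 (-0.56) lies lowest.

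Elovl4, Adipor1 and Elovl5 had the largest changes of the members that passed, in both directions, and the starts of these genes are shown for that reason. Each sequence runs 5′ to 3′ on the gene's own strand from 250 bases before to 30 bases after the start that RefSeq annotates on GRCm38.p6. Elovl4 has the window chr9:83806276-83806555 (minus strand), Adipor1 the first of its 2 windows at chr1:134415128-134415407 (plus strand) and Elovl5 the window chr9:77917115-77917394 (plus strand). Capitals mark the letters found on either strand for the motifs searched.
Elovl4: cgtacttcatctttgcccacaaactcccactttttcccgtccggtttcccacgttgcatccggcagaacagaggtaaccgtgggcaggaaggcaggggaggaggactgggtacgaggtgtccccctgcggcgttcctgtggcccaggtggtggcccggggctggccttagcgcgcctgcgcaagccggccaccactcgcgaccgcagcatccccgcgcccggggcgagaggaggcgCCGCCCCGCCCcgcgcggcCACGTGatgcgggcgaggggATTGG
Adipor1: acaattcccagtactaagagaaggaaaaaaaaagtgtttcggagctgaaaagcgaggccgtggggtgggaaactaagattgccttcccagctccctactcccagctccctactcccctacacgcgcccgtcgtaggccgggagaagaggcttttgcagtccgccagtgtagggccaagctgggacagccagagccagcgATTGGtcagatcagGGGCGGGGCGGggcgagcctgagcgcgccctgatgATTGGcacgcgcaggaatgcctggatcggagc
Elovl5: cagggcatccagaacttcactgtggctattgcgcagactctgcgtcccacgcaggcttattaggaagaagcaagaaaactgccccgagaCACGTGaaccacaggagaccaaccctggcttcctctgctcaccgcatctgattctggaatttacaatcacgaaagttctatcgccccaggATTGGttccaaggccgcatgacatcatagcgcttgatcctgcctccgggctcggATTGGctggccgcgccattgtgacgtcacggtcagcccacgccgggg
In the Elovl4 window the E-box CACGTG begins at base 6 counted from the RefSeq start (83806305). The NF-Y letters (CCAAT, here as ATTGG) begin at base 26 from it. The GENCODE coordinates given for Elovl4 below begin at 83806277 on this strand, after the first base of both. In the same window 2 overlapping GC boxes (GGGCGG, here as CCGCCC) begin 14 and 9 bases before the start. Elovl5 holds CACGTG 161 bases before its start and ATTGG 71 and 17 bases before it. Adipor1 holds ATTGG 51 and 2 bases before its start and 2 overlapping GC boxes 37 and 32 bases before it. Of the 32851 windows of the same length in the RefSeq table, 6.79% held CACGTG, 36.1% CCAAT and 34.7% GGGCGG on either strand. The other letters searched were those of CRX (GGATTA, 6.77% of windows), E2F (TTTCCCGC, 1.01%), SREBP (TCACNCCAC, 1.18%) and a nuclear receptor half-site (AGGTCA, 15.3%). The letters of CRX, E2F and SREBP were in none of the 11 windows found for 7 of the 8 members, and AGGTCA was in those of Mfsd2a and Acsl6. These matches describe letters only.

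Fads2 and Fads1 encode the desaturases of the first and a later desaturation step on the way to DHA and arachidonic acid. They lie in the same cluster on chromosome 19, Fads2 at chr19:10062765-10101746 on the minus strand and Fads1 at chr19:10182888-10196877 on the plus strand. Fads2's normalized counts were 1150, 1170 and 1214 in the TKO retinae (replicates 1, 2 and 3) and 1363, 1412 and 1339 in the DKO retinae in the same order. Every TKO retina was thus below every DKO retina, and the replicates were close together. The means were 1178 ± 32.4 and 1371 ± 37.3 (SD, n = 3 each). The change of -0.22 ± 0.0697 on the log2 scale (standard error) did not pass, with adjusted p = 0.0654 in edgeR's quasi-likelihood test. Among other scalings of the libraries in edgeR, the adjusted p was 0.0492 after upper quartile scaling and 0.0205 after scaling by total counts alone. After RLE scaling it was 0.0715. These 2 passing fits were the only ones of 16 alternatives, and with 1 retina left out the adjusted p was 0.0751 to 0.203.

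Fads1 had 1433, 1517 and 1619 normalized counts in the TKO retinae and 1928, 1856 and 1931 in the DKO retinae. Again the groups did not overlap, and TKO replicate 3 was the TKO retina nearest to DKO. The means were 1523 ± 92.8 and 1905 ± 42.4 (SD, n = 3 each). The change was -0.32 ± 0.0763 on the log2 scale (standard error), with adjusted p = 0.0251 in edgeR's quasi-likelihood test. Leaving out TKO replicate 1 or 2 raised the adjusted p to 0.0866 or 0.0953, and leaving out DKO replicate 1 or 2 raised it to 0.0742 or 0.0779, in the same edgeR fit. Fads1 overlaps a microRNA gene, Mir6993, which had 12 counts over the 6 libraries. The proportions within the desaturase family overlapped between the genotypes. Counts per kb of exon were summed over Fads1, Fads2 and Fads3, and Fads1 took 40.7% ± 0.586 in TKO and 41.6% ± 0.438 in DKO retinae, while Fads2 took 46.0% ± 1.28 and 43.7% ± 1.81. Exact two-sided permutation tests of these shares gave p = 0.2 for Fads1 and p = 0.3 for Fads2, where 0.1 is the smallest p that 3 retinae against 3 allow. Benjamini-Hochberg adjustment over the 17 shares of 4 gene families that were compared gave 0.262 and 0.364.

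Elovl5 extends the fatty acid intermediates between and after the desaturation steps. It lies at chr9:77917364-77984519 on the plus strand, and its promoter window is the last of those printed above. Its normalized counts were 601, 686 and 733 in the TKO retinae (replicates 1, 2 and 3) and 1108, 995 and 875 in the DKO retinae in the same order. The DKO retina with the fewest counts, replicate 3, was still above the TKO retina with the most, also replicate 3. The means were 673 ± 66.8 and 992 ± 117 (SD, n = 3 each). The change was -0.56 ± 0.113 on the log2 scale (standard error), with adjusted p = 0.0154 in edgeR's quasi-likelihood test. In the edgeR fits with 1 retina left out, the adjusted p was 0.0622 without TKO replicate 2 and 0.0574 or 0.0628 without DKO replicate 1 or 2.

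Elovl2 makes the last elongation before peroxisomal shortening to DHA. It lies at chr13:41182381-41220405 on the minus strand and had 585, 633 and 455 normalized counts in the TKO retinae and 547, 628 and 600 in the DKO retinae. The highest and the lowest value were both from TKO retinae, so the DKO values lay inside the TKO range. The log2 fold change was -0.08 (standard error 0.129, adjusted p = 0.69 by edgeR's quasi-likelihood test), and it was 0.05 without TKO replicate 3.

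Elovl4 lengthens DHA and other long-chain fatty acids to the very-long-chain acids of photoreceptor discs, and dominant mutations of the human gene cause a juvenile macular dystrophy. It lies at chr9:83778692-83806277 on the minus strand. Its normalized counts were 4870, 4917 and 3293 in the TKO retinae (replicates 1, 2 and 3) and 1930, 2011 and 2426 in the DKO retinae in the same order. All TKO retinae were above all DKO retinae, with TKO replicate 3 the lowest of its group and DKO replicate 3 the highest of its own. The means were 4360 ± 925 and 2122 ± 266 (SD, n = 3 each). The change was 1.04 ± 0.165 on the log2 scale (standard error), with adjusted p = 0.00821 in edgeR's quasi-likelihood test. Elovl4 passed with each retina left out in turn, with an adjusted p of at most 0.045 and log2 fold changes from 0.94 to 1.21 in edgeR. With libraries scaled by total counts alone its log2 fold change was 0.88, under the study's criterion of 1.

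Within the elongase family, Elovl4 took a larger and Elovl5 a smaller share in every TKO than in every DKO retina. Of the counts per kb summed over Elovl1 to Elovl7, a ratio within each library that does not use the scaling between libraries, Elovl4 took 71.1%, 69.7% and 61.2% in the TKO retinae and 44.6%, 47.0% and 51.6% in the DKO retinae. Elovl5 took 9.2% ± 2.21 of TKO and 19.3% ± 3.05 of DKO counts per kb (SD, n = 3 each). A share also depends on the other genes of the sum. Elovl2 took 6.6% ± 0.207 and 10.2% ± 0.869, while its own normalized counts overlapped with a log2 fold change of -0.08. The shares of 5 of the 7 elongases did not overlap between the groups, those of Elovl1 (2.33% and 4.06%) and Elovl7 (1.01% and 1.66%) beside the 3 members, and the exact two-sided permutation test gave p = 0.1 for each, the smallest it can give (0.189 when adjusted over the 17 shares). The difference for Elovl4 was 19.6 percentage points and stayed between 17.7 and 22.7 with single retinae left out. Among the elongases outside the members, Elovl6, which extends saturated fatty acids, took 13.5% ± 2.74 and 17.0% ± 1.21, which overlapped, while its own normalized counts had a log2 fold change of 0.18.

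**Figure D3:**
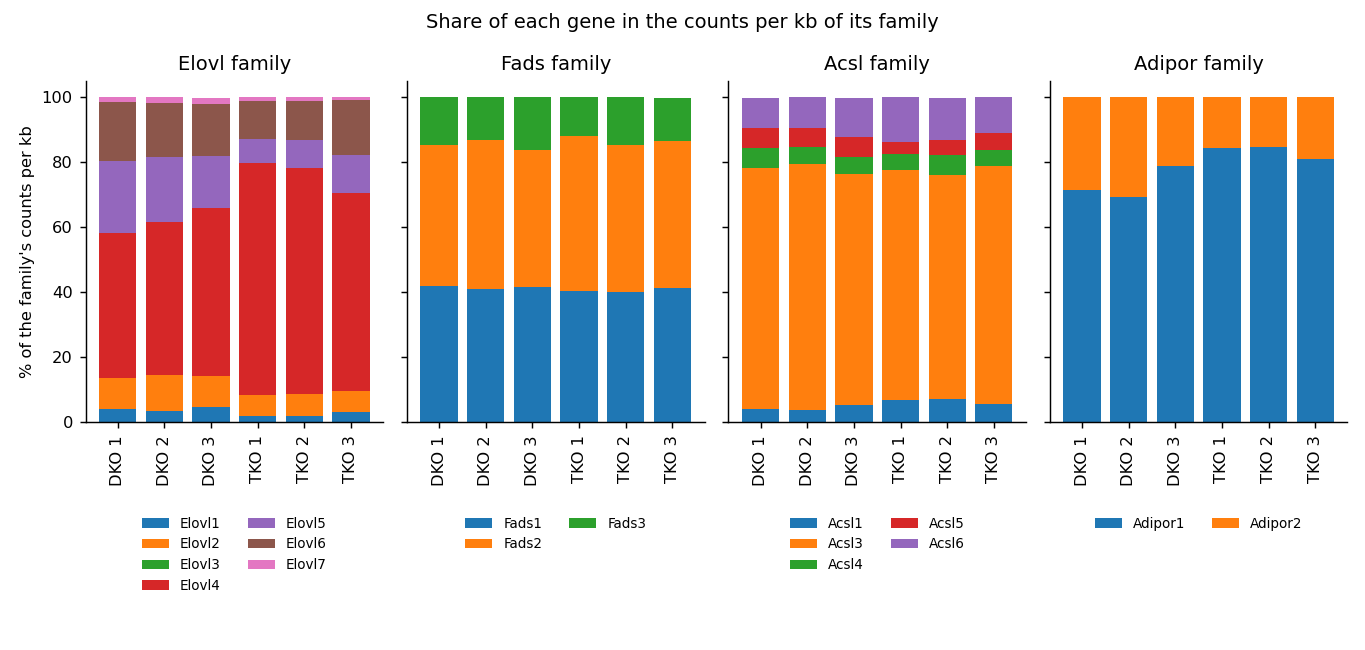
Share of each gene (vertical axis, percent) in the counts per kb of exon summed over its family, as 1 stacked bar for each DKO and TKO retina. The red Elovl4 segment fills 61.2% to 71.1% of the elongase bars in TKO and 44.6% to 51.6% in DKO retinae, while Fads1 fills 40.2% to 41.3% and 41.1% to 42.0% of the desaturase bars.

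Acsl6 encodes an acyl-CoA synthetase that activates long-chain fatty acids with a preference for DHA, which holds DHA inside neurons and photoreceptors. It lies at chr11:54303798-54364756 on the plus strand. Its normalized counts were 2916, 2651 and 2227 in the TKO retinae (replicates 1, 2 and 3) and 1628, 1700 and 1978 in the DKO retinae in the same order. The groups did not overlap, and replicate 3 of each genotype was again the nearest to the other group. The means were 2598 ± 347 and 1769 ± 185 (SD, n = 3 each). The change was 0.55 ± 0.12 on the log2 scale (standard error), with adjusted p = 0.0187 in edgeR's quasi-likelihood test. In edgeR fits with 1 retina left out, the adjusted p was 0.0585 or 0.0741 without TKO replicate 1 or 2, and 0.073 or 0.0819 without DKO replicate 1 or 2. An antisense gene, Gm12224, overlaps Acsl6 and is not a row of the table, and the strand setting of the counting is not given in the sources used here, so antisense reads may be included. Acsl6 took 12.6% ± 1.41 of the counts per kb of the Acsl family in TKO and 10.4% ± 1.62 in DKO retinae, shares that overlapped (p = 0.2 by the exact two-sided permutation test, adjusted 0.262). The most abundant synthetase of the family was Acsl3, with 70.9% ± 2.18 and 73.6% ± 2.36.

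Mfsd2a carries DHA, bound to lysophosphatidylcholine, across the endothelium of the blood-retina barrier and into the retinal pigment epithelium (RPE). It lies at chr4:122946850-122961188 on the minus strand and was the least abundant member. Its normalized counts were 58.5, 52.6 and 62.6 in the TKO retinae (replicates 1, 2 and 3) and 53.6, 28.0 and 69.9 in the DKO retinae in the same order. The highest and the lowest value were both from DKO retinae, so the TKO values lay inside the DKO range. The log2 fold change was 0.19 (standard error 0.325, adjusted p = 0.716 by edgeR's quasi-likelihood test) and -0.10 without DKO replicate 2. With 32 to 81 raw counts per library, no difference of this gene was detected. Of 12 endothelial markers, 2 were higher and none lower, with summed normalized counts of 6028 to 7330 in TKO and 5885 to 7448 in DKO retinae. Of 12 RPE markers, 1 (Rpe65) was higher, and the sums were 1287 to 3601 against 571.3 to 1728, highest in TKO replicate 2 and lowest in DKO replicate 1. The part of these cells in the Mfsd2a counts was not tested.

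Adipor1 encodes a membrane receptor of adiponectin, and mice that lack it lose DHA and very-long-chain fatty acids from the retina. It lies at chr1:134415378-134433351 on the plus strand. Its normalized counts were 6097, 6468 and 4195 in the TKO retinae (replicates 1, 2 and 3) and 2100, 2168 and 3297 in the DKO retinae in the same order. Every TKO retina was above every DKO retina, with the same order of the TKO and of the DKO retinae as for Elovl4. The means were 5586 ± 1220 and 2522 ± 673 (SD, n = 3 each). The change was 1.15 ± 0.215 on the log2 scale (standard error), with adjusted p = 0.0123 in edgeR's quasi-likelihood test. Left-out retinae raised the adjusted p to 0.0551 (TKO replicate 2), 0.0549 (DKO replicate 1) and 0.0595 (DKO replicate 2) in edgeR, with log2 fold changes of at least 1.03. With libraries scaled by total counts alone it was 0.99. Its relative Adipor2 had a log2 fold change of 0.28 (adjusted p = 0.0802 by edgeR). Adipor1 took 83.5% ± 1.97 of the counts per kb of the 2 receptors in TKO and 73.2% ± 4.97 in DKO retinae, without overlap (p = 0.1 by the exact two-sided permutation test, the smallest it can give, adjusted 0.189).

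Levels of different members can be set side by side only per length. In counts per kb of exon per 1e6 counts, Elovl4 and Adipor1 had the highest means of the members in both genotypes. Elovl4 stood at 114 ± 24.3 in TKO against 55.7 ± 6.98 in DKO retinae (SD, n = 3 each). Adipor1 stood at 88.2 ± 19.3 and 39.8 ± 10.6, and its range overlapped that of Elovl4 in both genotypes. With the longest transcript as the length in place of all exons, a choice made after the data were seen, their means were 115 and 56.1 for Elovl4 and 129 and 58.1 for Adipor1, so neither is placed above the other. Fads2 stood at 28.4 ± 0.781 and 33.0 ± 0.897 and Fads1 at 25.1 ± 1.53 and 31.4 ± 0.7. In DKO retinae the values of Fads2 (32.3 to 34.0) overlapped those of Adipor1 (33.2 to 52.1), whose highest was replicate 3. Among 16063 genes with a length, Elovl4 lay at percentile 97.7 and Adipor1 at percentile 96.6 of these levels. In DKO retinae Elovl5 (22.4 ± 2.63) was above Acsl6 (14.2 ± 1.48), and in TKO retinae Acsl6 (20.8 ± 2.78) was above Elovl5 (15.2 ± 1.51). The retinae did not overlap in either order, but with the longest transcript as the length the DKO values overlapped (24.9 to 31.6 for Elovl5 and 22.2 to 27.0 for Acsl6). Elovl2 followed at 11.2 ± 1.84 and 11.8 ± 0.823, and Mfsd2a was last at 2.04 ± 0.177 and 1.78 ± 0.745.

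Within each genotype, the members that rose placed the third replicate as rod markers did. Between the genotypes their order was fixed, since these members were higher in every TKO retina. Gnat1, the rod transducin, had 81440 to 158000 normalized counts in TKO against 26620 to 53070 in DKO retinae (log2 fold change 1.84, adjusted p = 0.0114 by edgeR). The summed rod markers were 3.54-fold higher in TKO retinae, against 2.05-fold for Elovl4, 2.22-fold for Adipor1 and 1.47-fold for Acsl6, each fold of a member being smaller than that of the rod sum. Cone markers had 2 of 10 genes higher and none lower, with sums of 15940 to 27830 against 10960 to 19390. DKO replicate 3 had the highest rod sum of its group (271500) and TKO replicate 3 the lowest (420400), which is also how Elovl4, Adipor1 and Acsl6 ordered them. The cone sums and the bipolar sums (19580 to 26380 in TKO, 17650 to 20880 in DKO retinae) placed the third replicates likewise. This order was thus not particular to rods. The amacrine sums had it reversed, with TKO replicate 3 the highest of its group (29350) and DKO replicate 3 the lowest (27070).

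Elovl5 and the markers of dividing cells ranked the 6 retinae alike, with DKO replicate 1 the highest, TKO replicate 1 the lowest and the third replicates of both genotypes nearest to the other group. The summed markers of dividing cells were 5.79-fold higher in DKO retinae, with log2 fold changes of -3.21 for Top2a and -2.52 for Mki67, the most abundant of them, while Elovl5 was 1.47-fold higher. Of 12 microglial markers, 7 were lower and none higher, with sums of 2369 to 4242 against 4962 to 7589. The microglial sums also had TKO replicate 1 lowest and the third replicates nearest to the other group, with DKO replicate 2 highest. This placing of the third replicates was thus not particular to dividing cells. Muller glia markers had 4 of 10 genes higher and 1 lower, with sums of 74150 to 77720 against 62460 to 67790. None of the markers of these lists was at 0 in every library, and the part of these cell types in the changes of the 8 genes was not tested.

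**Figure D4:**
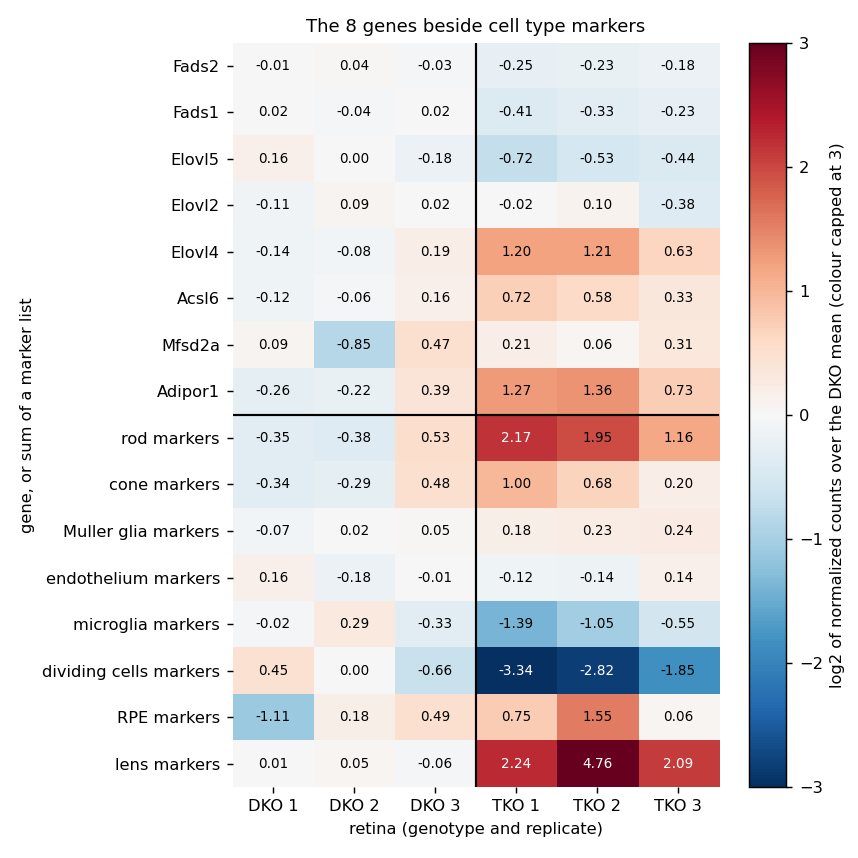
Log2 of normalized counts over the DKO mean in each retina (columns) for the 8 genes and for the summed counts of 8 cell type marker lists (rows), red above and blue below the DKO mean, with colour capped at 3. TKO replicate 3 and DKO replicate 3 lie nearest to each other for Elovl4 (0.63 and 0.19), for the rod markers (1.16 and 0.53) and for the markers of dividing cells (-1.85 and -0.66).

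The genes with the most similar profile over the 6 libraries were found by Pearson's r of log2 normalized counts among 11680 genes with a mean of at least 100. The libraries fall into 2 genotypes, and r is given only as a description of this likeness. For Elovl4 they included Cdr2 (r = 0.9981) and Osbp2 (r = 0.9979). For Adipor1 they were Ormdl3, Reep6 and Inpp5k (r at least 0.999), and for Acsl6 they were Otx2, 1700071M16Rik and Nr2e3 (r from 0.9985 to 0.9988). Otx2 and Nr2e3 are photoreceptor transcription factors, and Nr2e3 is also one of the rod markers. For Elovl5 they were Itgb1, Cenpf and Rbms1 (r at least 0.997), of which Cenpf is a kinetochore gene and one of the markers of dividing cells. Fads1 was closest to Tubb6, Tagln2 and Chrna3, Fads2 to Ctsz, Mdga1 and Kcne1l, and Elovl2 to Zfp449, Ogfod3 and Chrna7. Mfsd2a was under the minimum mean and was not compared.

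Beyond the 8 members, 114 other genes of fatty acid handling were listed in 9 groups by function, and 108 of them could be tested. Of these, 15 (13.9%) were higher and 7 (6.48%) were lower in TKO retinae at an adjusted p of at most 0.05 in edgeR, with a median log2 fold change of 0.10, beside 7.35% higher, 9.2% lower and a median of -0.011 over all genes tested. The lists had medians from -0.18 (desaturases outside the members) to 0.29 (de novo synthesis). Of the 22 genes that passed, 8 did so with each retina left out in turn, namely Fabp5, Fabp7, Vldlr, Dbi, Acsl1, Agpat3, Pla2g5 and Ppara. Leaving out TKO replicate 1 or 2 brought the number passing to 12 or 8, and leaving out DKO replicate 1 or 2 brought it to 10 or 8. Over all genes the number passing fell from 2799 to 1307 or 712 and to 811 or 647 in the same fits.

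The elongation cycle also needs enzymes that reduce and dehydrate each added unit, and most of its genes did not pass. Of its 10 genes tested, none was higher and 1, the dehydratase Hacd4 (Ptplad2 in the table), was lower, at -1.30 on the log2 scale (adjusted p = 0.035 by edgeR) at 22.5 ± 5.24 and 56.0 ± 18.7 normalized counts, and it did not pass in 7 of the 16 alternative fits. The reductase Tecr and the dehydratase Hacd3 (Ptplad1) were its most abundant genes and had log2 fold changes of 0.23 and 0.14, neither past the threshold. None of the 8 tested genes of the desaturase list outside the members, which also holds the electron carrier Cyb5a and the reductase Cyb5r3, passed in either direction, and the abundant stearoyl-CoA desaturase Scd2 had a log2 fold change of -0.24 (adjusted p = 0.154 by edgeR). In peroxisomal beta-oxidation, the step that trims the precursor to DHA, 1 of 14 genes was higher, the thiolase Acaa1a (log2 fold change 0.52, adjusted p = 0.0218), and none was lower. The thiolase Scp2 had 0.31 on the same scale and did not pass.

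Fatty acid uptake and binding was the list with the most genes that passed, 2 higher and 4 lower of 16. Vldlr, a lipoprotein receptor that takes up fatty acids in photoreceptors, had 5316, 4459 and 3553 normalized counts in TKO and 2357, 2101 and 2365 in DKO retinae (log2 fold change 0.97, adjusted p = 0.00733 by edgeR). Fabp12, a fatty acid binding protein, rose 2.95-fold, with 810 to 1587 normalized counts against 295.9 to 625.1. The genes that fell were Fabp7, Fabp5, Slc27a3 and Slc27a6. Fabp7, the binding protein of glia and progenitors that prefers DHA, had 14.9, 12.6 and 30.7 normalized counts in TKO and 149, 198 and 83.8 in DKO retinae (log2 fold change -2.90, adjusted p = 0.00731 by edgeR). Fabp5, which binds a wide range of long-chain fatty acids, had 579 ± 48.1 and 1067 ± 109 normalized counts (log2 fold change -0.88, adjusted p = 0.00554 by edgeR) and passed in all 16 alternative fits. The acyl-CoA synthetases of the transport protein family, Slc27a3 and Slc27a6, had log2 fold changes of -0.91 and -1.03.

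Of the 9 genes for acyl-CoA synthetases and binding proteins tested, 2 were higher and 1 was lower. Acsl1, a synthetase of the same family as Acsl6, had 1438 ± 198 and 808 ± 115 normalized counts (log2 fold change 0.83, adjusted p = 0.00821 by edgeR). Dbi, the acyl-CoA binding protein, had 1226 ± 177 and 2092 ± 72.5 (log2 fold change -0.77, adjusted p = 0.007 by edgeR) and passed in all 16 alternative fits. Acbd5, which tethers peroxisomes to the endoplasmic reticulum, had a log2 fold change of 0.35.

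The list of phospholipid acylation and remodelling, which also holds phospholipases that release fatty acids, had 4 genes higher and 1 lower of 20. Agpat3, an acyltransferase with a preference for DHA that is needed for DHA-containing phospholipids in photoreceptors, had 12350, 10790 and 7368 normalized counts in TKO and 3508, 3540 and 4853 in DKO retinae. It was the most abundant gene of its list, its groups did not overlap, and its order of retinae within each genotype was that of Acsl6. The log2 fold change was 1.36 (standard error 0.207, adjusted p = 0.00755 by edgeR), a 2.56-fold rise. Lpcat1, which loads saturated chains into phosphatidylcholine and is mutated in a mouse retinal degeneration, had 1444 ± 156 and 967 ± 73.2 normalized counts (log2 fold change 0.58, adjusted p = 0.0106 by edgeR). The secreted phospholipase Pla2g5 had a log2 fold change of 0.80, Lclat1 of 0.38 and the acyltransferase Mboat1 of -0.86.

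De novo synthesis had 2 of 7 genes higher and none lower, the malic enzyme Me1 (log2 fold change 0.52) and the acetyl-CoA synthetase Acss2 (0.34), while the fatty acid synthase Fasn had -0.25 and did not pass. Of 17 transcription regulators tested, 3 were higher and none was lower. Ppara, the nuclear receptor that fatty acids activate, had 521, 444 and 287 normalized counts in TKO and 117, 98.1 and 137 in DKO retinae (log2 fold change 1.83, standard error 0.23, adjusted p = 0.00623 by edgeR). Its coactivator Ppargc1a and its partner Rxra, a receptor that can bind DHA, had log2 fold changes of 0.61 and 0.55. Srebf2, a sterol-regulated activator, had 0.28 (adjusted p = 0.233 by edgeR). Among 7 tested partners and relatives of Adipor1, 1 was higher, Paqr4 (0.72, adjusted p = 0.0409 by edgeR), a member of the same receptor family. Paqr4 had groups that overlapped and did not pass in 7 of the 16 alternative fits. The adaptors Appl1 and Appl2 had -0.17 and 0.30 without passing. Mfrp and C1qtnf5, which share a locus, were listed at 0 in all 6 libraries.

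**Figure D5:**
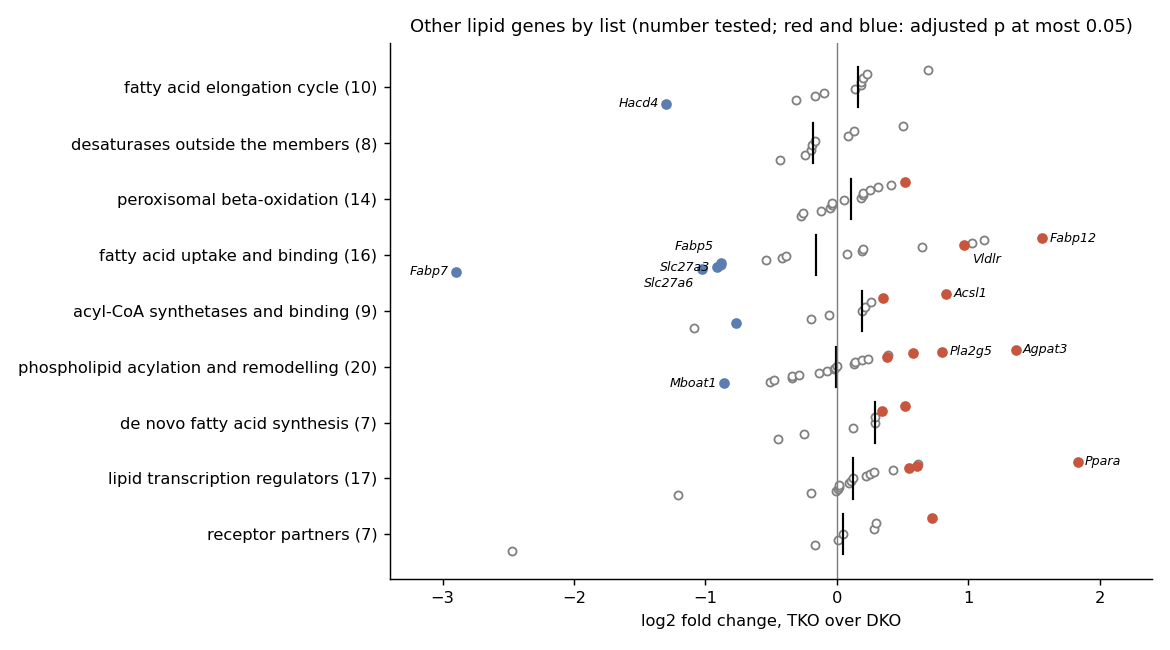
Log2 fold change (horizontal axis, TKO over DKO) of the tested genes of 9 lipid gene lists, 1 point per gene, with the number tested in parentheses and a black bar at each list's median; red and blue points passed an adjusted p of 0.05 in edgeR. Agpat3 (1.36), Fabp12 (1.56) and Ppara (1.83) lie farthest to the right and Fabp7 (-2.90) farthest to the left of the genes that passed.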

How the data were processed

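Per the labels, libraries were made from total RNA of whole retinae with a stranded mRNA kit, and per the study's methods they were sequenced as read pairs. The authors deposited raw read counts per gene symbol, 1 column per retina, without normalization. The submitters' processing notes list TopHat2, featureCounts and DESeq2 with mm10 (GRCm38), the study's methods name STAR and HTSeq, and which of them made the counts is not settled here. Reads with several alignments were kept at alignment per those methods, and how they were counted is not given in the sources used here, so counts of near-identical gene copies are uncertain.

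From these counts, genes with a sum of at least 10 were fitted in edgeR 4.0.16 (R 4.3.3) with TMM scaling, the quasi-likelihood F test and Benjamini-Hochberg adjustment, and standard errors were obtained by dividing the size of the log2 fold change by the root of the F statistic. The fold of a gene is 2 to the power of its log2 fold change. Lengths and coordinates come from GENCODE M21 on GRCm38 (exon unions; 95.0% of the genes tested had one) and promoter windows from RefSeq, which had no window for Fads1. For 7 genes the table uses an older symbol, matched through RefSeq synonyms. Shares were compared with the exact permutation test of SciPy 1.17.1, and figures drawn with matplotlib 3.10.9.

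Genes were named by a rule, namely the targeted genes, the 8 members, up to 6 passing and 2 abundant non-passing genes of each lipid list, the 3 nearest profiles of each member, and the 2 most abundant genes of a marker list. A few genes that this rule names are not reported here. Rpe65, Nr2e3 and Cenpf as markers, Adipor2, Elovl1, Elovl6, Elovl7, Cyb5a, Cyb5r3, Mfrp, C1qtnf5 and Gm12224 were named outside it after their values were seen. The members, lists and tests were chosen with earlier results of these data known. The spread between replicates exceeded counting noise (chi-square of 8.61 to 25.3 per degree of freedom for pairs within a genotype). Same-numbered TKO and DKO retinae did not deviate together (r of 0.147, -0.1 and -0.134 over 12903 genes), so the numbers were not taken to pair them. Alternatives were DESeq2 1.42.0, limma-voom (limma 3.58.1), other scalings, filters, dispersions and thresholds, the replicate number as a block, and each retina left out.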

Additional observations from a re-analysis of the deposited data

How the results depend on the processing

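No member that passed changed direction under any of the 16 alternative fits. Scaling by total counts alone, which shifted all genes to a median of -0.17, gave 0 differentially expressed members and adjusted p = 0.0205 for Fads2 (log2 fold change -0.38, edgeR), and Rbl1 then had -0.0356. Upper quartile scaling gave Fads2 an adjusted p of 0.0492 (-0.25, edgeR), and Fads2 did not pass in 14 of the 16 alternative fits. Without a minimum fold change, 5 members were called. With 1 retina left out, the members passing ranged from 1 to 5 and those differentially expressed from 0 to 2. The other lipid genes passing ranged from 8 to 31, and all genes passing from 647 to 3590, in these fits. The log2 fold change ranged from 0.46 to 0.66 for Acsl6, 1.03 to 1.39 for Adipor1, -0.64 to -0.47 for Elovl5, -0.36 to -0.28 for Fads1, -0.19 to 0.0454 for Elovl2, -0.10 to 0.51 for Mfsd2a and -0.15 to 0.36 for Rbl1. For Rb1 it ranged from 0.274 to 0.405 in the same fits. With the longest transcript as the length, added after the data were seen, the level of Elovl4 minus that of Adipor1 was -13.4 in TKO and -1.94 in DKO retinae, against 26.1 and 15.8 counts per kb per 1e6 counts with the exon union. Low counts limit the precision for Mfsd2a, and counts cannot tell cell number from RNA per cell.

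With replicate number added as a block, 106 genes passed over the whole table against 2799 without it, 0 of the 8 members passed, 0 were called differentially expressed, and 2 of the other lipid genes passed. The log2 fold changes under the block were 1.02 for Elovl4 (adjusted p = 0.0599), -0.56 for Elovl5 (0.0714), -0.32 for Fads1 (0.0697), 1.16 for Adipor1 (0.0678) and 0.55 for Acsl6 (0.08), all from edgeR. Since the numbers did not pair the retinae, these fits are given as a check only.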

Other observations

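Of the 8 nearest coding neighbours of the members, 5 were tested, and 1 was higher and 3 were lower in TKO retinae at an adjusted p of at most 0.05 in edgeR, beside 7.35% higher and 9.2% lower of all genes tested. The other 3, Sycp2l, Gcm1 and Meikin, were not among the genes tested. Fen1, a flap endonuclease of DNA replication that lies 2255 bp from Fads1, averaged 298 normalized counts in TKO against 536 in DKO retinae (log2 fold change -0.85, adjusted p = 0.007 by edgeR). Ttk, a mitotic kinase 28412 bp from Elovl4, moved against Elovl4, with 39.2 and 197 normalized counts (log2 fold change -2.34, adjusted p = 0.0135 by edgeR). Cyb5r1, a cytochrome b5 reductase 3638 bp from Adipor1, was higher like Adipor1, with 566 and 316 (log2 fold change 0.84, adjusted p = 0.00957 by edgeR). Mycl, 34464 bp from Mfsd2a, was lower, with 126 and 350 (log2 fold change -1.47, adjusted p = 0.00473 by edgeR). Fads3, 2655 bp from Fads2, had -0.43 on the same scale and did not pass (adjusted p = 0.0583). These genes were looked at after the values of the members were seen.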
